A study of Mus musculus with 8 samples.

Results

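Immediate early transcription factors were examined in RNA-seq counts from mouse embryonic fibroblasts (MEFs, primary connective tissue cells grown from embryos) and from MEFs treated with 1 of 3 small molecules. The genes were the 10 rows of the count table with the symbols Fos, Fosb, Fosl1, Fosl2, Jun, Junb, Egr1, Egr2, Ier2 and Myc, out of 50578 genes listed, and all 10 were among the 15154 genes with enough reads for the test. The rows were taken by symbol and not by a measured value, but the members were chosen with earlier results of these data known. There were 4 groups of 2 libraries each, 8 libraries in all. The untreated group was wild-type MEFs at passage 3 to 5, taken from C57BL/6J embryos. The other groups were MEFs from the same source given 10 µM of Carbidopa, which inhibits aromatic-L-amino-acid decarboxylase, of LY-364747, an inhibitor of the TGF-beta receptor, or of CHIR-99021, which inhibits the kinase GSK3 and so activates Wnt signalling. The compounds were added 2 h after plating, in medium with serum that was renewed every 3 days. The time of treatment and the time from the last change of medium to harvest are not given in the sources used here for these libraries. The labels call the treated cells hepatic-like. The inhibitor's name is given as in the labels, and the methods spell it LY-364947.

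Immediate early genes are transcribed within minutes of a signal such as serum, a growth factor or stress, without new protein synthesis, because the factors that switch them on (serum response factor with its ELK partners, CREB and ATF proteins) already sit at their promoters and are activated by MAP kinases. Their products are mostly short-lived transcription factors: FOS proteins pair with JUN proteins to form AP-1, EGR proteins are zinc finger activators, and MYC pairs with MAX to drive genes of growth and ribosome building. In fibroblasts, plating, fresh serum and cell stress all induce them.

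Total counts ranged from 15039566 to 20504338 per library, and the 10 genes together took 3831 to 7617 of them. Nothing in the labels says that the 2 libraries of a group came from separate cultures, so p-values measure only the spread between these libraries, which may be technical. Levels are given as CPM, counts scaled to sequencing depth with TMM library sizes. The Carbidopa libraries stood furthest apart, with a chi-square of 36.4 per degree of freedom between replicates against 4.35 in MEFs, 7.60 with LY-364747 and 9.38 with CHIR-99021. The 11 fibroblast markers summed to 35070 to 35420 CPM in MEFs and 8239 to 11800 CPM in the treated groups, and none was at 0 reads in any group. The 13 macrophage markers summed to 1101 to 1140 CPM in MEFs, 338 to 362 with Carbidopa, 252 to 257 with LY-364747 and 82.4 to 91.5 with CHIR-99021, with none at 0. Epithelial markers summed to 3.10 to 4.16 CPM in MEFs, where Epcam and Cdh1 had 0 reads, and to 9.82 to 21.4 CPM in treated cells. Endothelial markers summed to 11.3 to 19.6 CPM. Hepatocyte markers summed to at most 1.18 CPM, with Tat at 0 reads in all 4 groups and Ttr in all but CHIR-99021, so defining hepatocyte markers were at or near 0 in cells that the labels call hepatic-like. Fibroblast and macrophage marker sums moved with every comparison against MEFs below, and their part in the members' values was not tested. In bulk RNA, fewer cells of a type and less RNA per cell cannot be told apart.

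Promoter windows came from RefSeq (build GRCm38.p6, 250 bases before to 50 after each start site). Those of 6 members were searched: Fos, Fosb, Fosl2, Jun, Junb and Egr2, the last with 5 start sites. No window was found for Fosl1, Ier2 and Myc. Egr1 was left out of the search, so the matches below say nothing of its promoter. The windows of Jun, Fos and Egr2 are shown because Jun was higher and Fos lower than in MEFs with every compound, and Egr2 had fewer reads in each. Capitals mark matches to the motifs searched on both strands. The Jun stretch (minus strand, chr4:95052223-95052342, bases -120 to -1) and the Fos stretch (plus strand, chr12:85473770-85473889, bases -120 to -1) end at the start site, and the 40 bases of Egr2 (plus strand, chr10:67537787-67537826) come from the most downstream window.
Jun: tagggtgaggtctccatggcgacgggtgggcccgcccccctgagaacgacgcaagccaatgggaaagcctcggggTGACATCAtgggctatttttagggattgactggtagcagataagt
Fos: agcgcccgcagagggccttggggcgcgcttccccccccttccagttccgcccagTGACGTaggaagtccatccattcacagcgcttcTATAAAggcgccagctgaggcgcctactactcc
Egr2: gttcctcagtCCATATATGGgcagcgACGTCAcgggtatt
The capitals in Jun are the site TGACATCA, an ATF/JUN type site at bases -45 to -38, which 3.62% of the 32851 promoter windows hold. In Fos the first capitals are the cAMP response element core TGACGT, which CREB and ATF proteins bind, at bases -66 to -61 (7.51% of windows), and the second are TATAAA, which the general transcription machinery recognises, at -33 to -28 (13.6% of windows). In Egr2 the first capitals are a CArG box, the site of serum response factor, which 1.63% of all windows hold, and the second are the cAMP response element core on the minus strand, ACGTCA, at -117 to -112. The Egr2 windows overlap: 4 of the 5 hold a CArG box, at 2 distinct sites, and 3 hold the same 1 cAMP response element core. The windows of Fosb and Fosl2 each hold GCGNGGGCG, the binding site of EGR proteins (5.55% of windows). The Junb window also holds TATAAA, at bases 1 to 6. The full cAMP response element TGACGTCA (1.79% of windows), the AP-1 site TGANTCA (7.81%) and the TCF site CTTTGAT (3.73%) were not found in the 6 members' windows. The E-box CACGTG (7.15%) lay only in the most upstream Egr2 window. No CArG box was found in the windows of Fos, Fosb, Fosl2, Jun and Junb. Bases further than 250 before a start site were not searched. A match describes letters and shows no binding. The motifs were chosen after the windows had been read, so the shares over all windows do not measure how unusual a match is. Egr2 had 5 windows, while the shares are given per window.

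In MEFs, levels scaled to exon length and sequencing depth (RPKM) ran over the 10 genes from 17.4 for Jun to 0.281 for Fosb. Jun (16.8 and 18.0 RPKM) and Egr1 (16.0 and 16.8) led and their libraries overlapped, followed by Myc (12.1 and 13.4) and Fosl2 (12.0 and 12.5), which overlapped as well. Fosl1 came next at 9.21 ± 0.59 RPKM (SD, n = 2), then Ier2 at 6.02 ± 0.78, Junb at 4.78 ± 0.33, Fos at 2.15 ± 0.57, Egr2 at 0.439 ± 0.030 and Fosb at 0.281 ± 0.027, each apart from its neighbours. Fos, often taken as the model immediate early gene, was thus among the 3 lowest. After treatment the order changed: Jun held rank 1 with all 3 compounds at 36.5 ± 12.0 RPKM with Carbidopa, 28.1 ± 2.8 with LY-364747 and 53.6 ± 6.1 with CHIR-99021, Egr1 fell from rank 2 to rank 5, 5 and 6, and Egr2 took the last place. With the length of the longest transcript in place of all exons, Fosl2 came first in MEFs at 18.1 RPKM and Jun second at 17.4, and Jun stayed first in each treated group.

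Against MEFs the set split. Egr2 passed the filter on low counts only through its reads in MEFs, so it is left out of the counts and medians here. Of the other 9 members, those called higher numbered 1 with Carbidopa, 1 with LY-364747 and 4 with CHIR-99021, and those called lower numbered 5, 6 and 3, at an adjusted p under 0.05 (edgeR's quasi-likelihood test, Benjamini-Hochberg over the 15154 genes). Over all genes tested, 18.0% were higher and 19.7% lower with Carbidopa, 13.7% and 17.2% with LY-364747, and 18.7% and 20.1% with CHIR-99021. Their median log2 fold change was -0.70, -1.12 and 0.24, beside 0.04, 0.03 and 0.04 over all genes. Both treated libraries lay outside both MEF libraries in 8 of these 9 with Carbidopa (Fosl1 overlapped), 9 of 9 with LY-364747 and 8 of 9 with CHIR-99021 (Junb overlapped), while 68.9%, 72.7% and 76.2% of all tested genes did so. Without MEF replicate 2, members called with LY-364747, Egr2 included, came to 5 in place of 8. The 3 comparisons share the MEF libraries. Jun was higher, and Fos, Fosl2 and Egr1 were lower, at the threshold in each of the 3, and Myc was called in all 3 but not in the same direction.

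**Figure D1:**
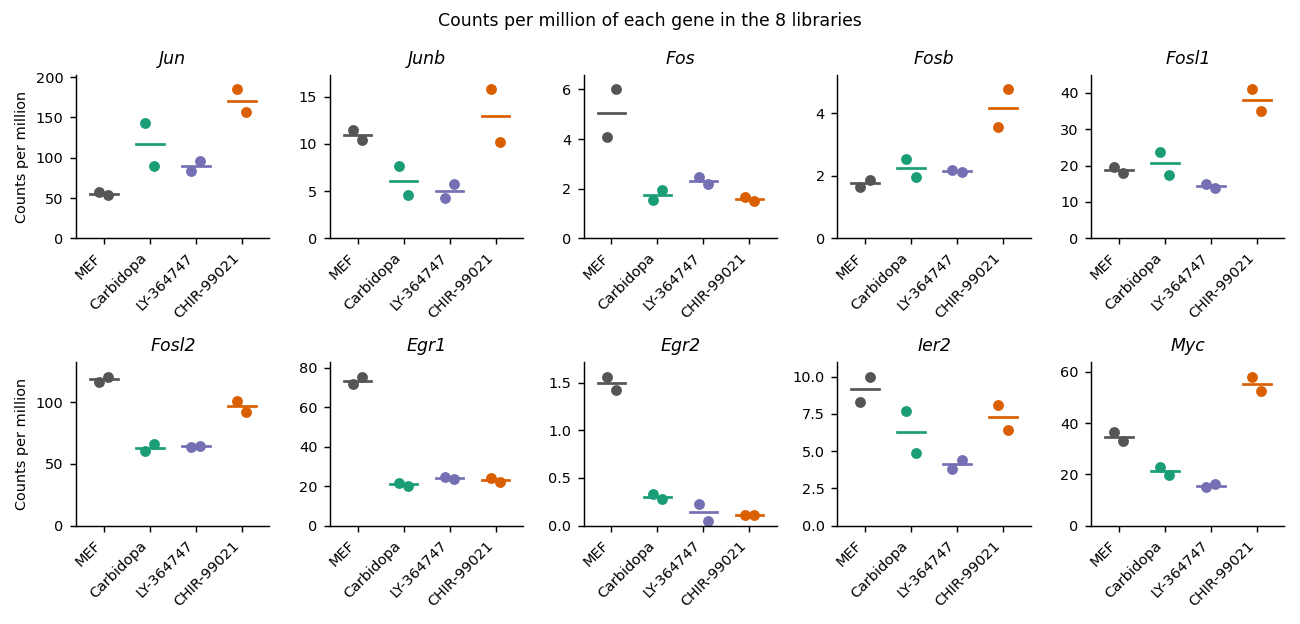
CPM (TMM-scaled, linear axes from 0) of the 10 genes in every library; points are libraries, replicate 1 on the left, and short lines are group means. Egr1 lay at 71.6 and 75.5 CPM in MEFs and between 20.1 and 24.9 in the 6 treated libraries, while Jun lay above the MEF libraries in all 6.

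**Figure D2:**
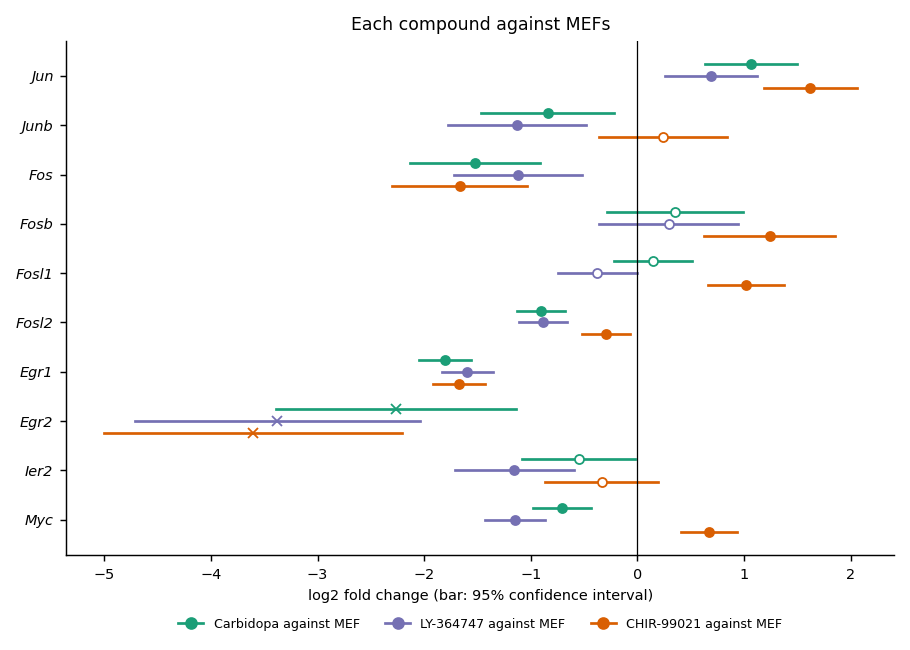
Log2 fold change of each gene against MEFs for each compound, with the 95% confidence interval of edgeR's fit; filled points passed an adjusted p of 0.05 and open points did not. Crosses mark Egr2, whose reads in MEFs alone brought it into the test. Jun was to the right of 0, and Fos, Fosl2 and Egr1 to the left, with all 3 compounds, while Myc lay left with Carbidopa and LY-364747 and right with CHIR-99021.

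Jun, the main partner of FOS proteins in AP-1 and a substrate of JNK kinases, was the only member called higher with all 3 compounds. Untreated libraries held 57.4 and 53.7 CPM, Carbidopa libraries 143 and 89.3, and the others 83.4 and 96.1 with LY-364747, and 185 and 157 with CHIR-99021. All treated libraries lay above the MEF libraries, the CHIR-99021 libraries were the highest, and the Carbidopa libraries were the furthest apart. The log2 fold change was 1.07 with Carbidopa (SE 0.19, adjusted p = 0.0018 from edgeR), 0.69 with LY-364747 (SE 0.19, adjusted p = 0.021) and 1.62 with CHIR-99021 (SE 0.20, adjusted p = 0.00011). Without Carbidopa replicate 1 the value with Carbidopa was 0.69 (edgeR adjusted p = 0.000939). The call with LY-364747 did not hold without MEF replicate 1 (0.74, edgeR adjusted p = 0.0866), MEF replicate 2 (0.64, edgeR adjusted p = 0.131) or LY-364747 replicate 2 (0.58, edgeR adjusted p = 0.136). Jun (ENSMUSG00000052684, chr4:95049034-95052222, GRCm38) is a gene without introns, and 5.07% of its 75-base words are shared with the antisense gene Junos, which had 8 to 22 reads per library.

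Junb, a JUN protein that often acts against Jun, moved the other way with 2 of the compounds. It had 11.5 and 10.5 CPM in untreated cells, 7.67 and 4.57 under Carbidopa, 4.27 and 5.75 under LY-364747, and 15.8 and 10.2 under CHIR-99021. It was lower with Carbidopa (log2 fold change -0.84, SE 0.28, adjusted p = 0.0382 from edgeR) and with LY-364747 (-1.13, SE 0.29, adjusted p = 0.0134), and the CHIR-99021 libraries lay on either side of both MEF libraries (0.24, 95% interval -0.36 to 0.84). The Carbidopa call was lost without MEF replicate 1 (-0.77, edgeR adjusted p = 0.158), MEF replicate 2 (-0.92, edgeR adjusted p = 0.10) or Carbidopa replicate 2 (-0.52, edgeR adjusted p = 0.122), where the value moved by more than 1.5 times. The LY-364747 call was lost without MEF replicate 1 (-1.06, edgeR adjusted p = 0.0762) or LY-364747 replicate 1 (-0.93, edgeR adjusted p = 0.10). Junb shares 4.74% of its 75-base words with Prdx2, a gene on the opposite strand that had 1550 to 3321 reads per library against 76 to 274 for Junb, and without a known strand setting reads of that overlap cannot be told apart. Of the reads on Jun and Junb taken per length, Jun held 78.2% and 78.7% in MEFs and 89.4% to 93.4% in the treated libraries. Jund, the third JUN gene, which is expressed steadily in most cells, did not pass the test with any compound (log2 fold change 0.50, -0.12 and 0.08 with Carbidopa, LY-364747 and CHIR-99021). With Jund included, Jund led the family per length in both MEF libraries (53.4% and 51.9%) and Jun led in all 6 treated libraries (48.2% to 64.5%), in Carbidopa replicate 1 by a margin too small to show in the rounded shares.

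Fos, the partner that gives AP-1 its strongest activation, fell with every compound. It had 4.09 and 6.00 CPM in untreated cells (55 and 93 reads), 1.55 and 1.96 under Carbidopa, 2.47 and 2.18 under LY-364747, and 1.67 and 1.51 under CHIR-99021. No treated library reached a MEF library, although the MEF replicates differed more for Fos than for any other member. The log2 fold change was -1.52 with Carbidopa (SE 0.28, adjusted p = 0.00165 from edgeR), -1.12 with LY-364747 (SE 0.27, adjusted p = 0.00958) and -1.67 with CHIR-99021 (SE 0.28, adjusted p = 0.00113). Without MEF replicate 2 (-0.82, edgeR adjusted p = 0.13) or LY-364747 replicate 2 (-1.04, edgeR adjusted p = 0.0768) the call with LY-364747 was lost.

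Fosl2 (Fra-2), a FOS protein without a strong activation domain, was the most abundant of the family in reads. It had 116 and 121 CPM in untreated cells, 60.3 and 66.3 under Carbidopa, 63.6 and 64.8 under LY-364747, and 101 and 91.8 under CHIR-99021. It fell by 0.91 on the log2 scale with Carbidopa (SE 0.10, adjusted p = 6.61e-05 from edgeR) and by 0.89 with LY-364747 (SE 0.10, adjusted p = 8.27e-05). The difference with CHIR-99021 was -0.30 (SE 0.10, adjusted p = 0.0397), a call that was lost without any 1 of the 4 libraries compared (adjusted p 0.0806 to 0.242, edgeR) and without the filter on low counts (-0.27, edgeR adjusted p = 0.124).

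Fosl1 (Fra-1), which AP-1 itself induces and which marks migrating cells, and Fosb, a FOS protein best known from neurons, rose with CHIR-99021. Fosl1 had 19.6 and 17.9 CPM in untreated cells, 23.9 and 17.5 under Carbidopa, 15.0 and 13.8 under LY-364747, and 40.9 and 34.9 under CHIR-99021. Its log2 fold change was 1.02 with CHIR-99021 (SE 0.16, adjusted p = 0.000694 from edgeR), 0.14 with Carbidopa (95% interval -0.22 to 0.51) and -0.38 with LY-364747 (95% interval -0.75 to -0.0023, edgeR adjusted p = 0.121). Both LY-364747 libraries lay below the MEF libraries, and that value passed in a fit of the compared groups alone (-0.37, edgeR adjusted p = 0.0164). With Carbidopa the value turned to -0.10 without Carbidopa replicate 1 and passed without Carbidopa replicate 2 (0.35, edgeR adjusted p = 0.0486). Fosl1 lies over Ccdc85b, a gene on the opposite strand, and shares 50.2% of its 75-base words with it. Whether the counting used strand is not given in the sources used here, so reads of this pair cannot be told apart, and Ccdc85b itself had 25 and 19 reads in untreated cells, 103 and 39 under Carbidopa, 21 and 30 under LY-364747, and 98 and 29 under CHIR-99021. Fosb had 1.64 and 1.87 CPM in untreated cells (22 and 29 reads), 2.54 and 1.96 under Carbidopa, 2.19 and 2.13 under LY-364747, and 3.57 and 4.76 under CHIR-99021. All treated libraries lay above the MEF libraries, and the difference passed with CHIR-99021 (1.24, SE 0.28, adjusted p = 0.00535 from edgeR) and not with Carbidopa (0.35, 95% interval -0.29 to 0.99) or LY-364747 (0.30, 95% interval -0.36 to 0.95).

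These unequal changes altered the makeup of AP-1 transcripts within each library. The ratios of reads below were not corrected for gene length, so only their change between libraries is free of it. Reads of Fosl1 per read of Fosl2 were 0.168 and 0.148 in untreated cells, 0.396 and 0.264 under Carbidopa, 0.237 and 0.213 under LY-364747, and 0.404 and 0.381 under CHIR-99021. All treated libraries were above both MEF libraries in this ratio. Reads of Jun per read of Fos were 14.0 and 8.95 in untreated cells, 92.3 and 45.6 under Carbidopa, 33.8 and 44.0 under LY-364747, and 111 and 104 under CHIR-99021. Per length over all exons, Fosl2 led the FOS family in both MEF libraries (50.9% and 51.7% of the summed RPKM) and Fosl1 led in all 6 treated libraries (46.0% to 63.1%). With the longest transcript as the length, Fosl1 led only in Carbidopa replicate 1 and both CHIR-99021 libraries (53.9% to 56.0%), and Fosl2 in the other treated libraries. The ratios are descriptions of the libraries, and no test of them was made.

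**Figure D3:**
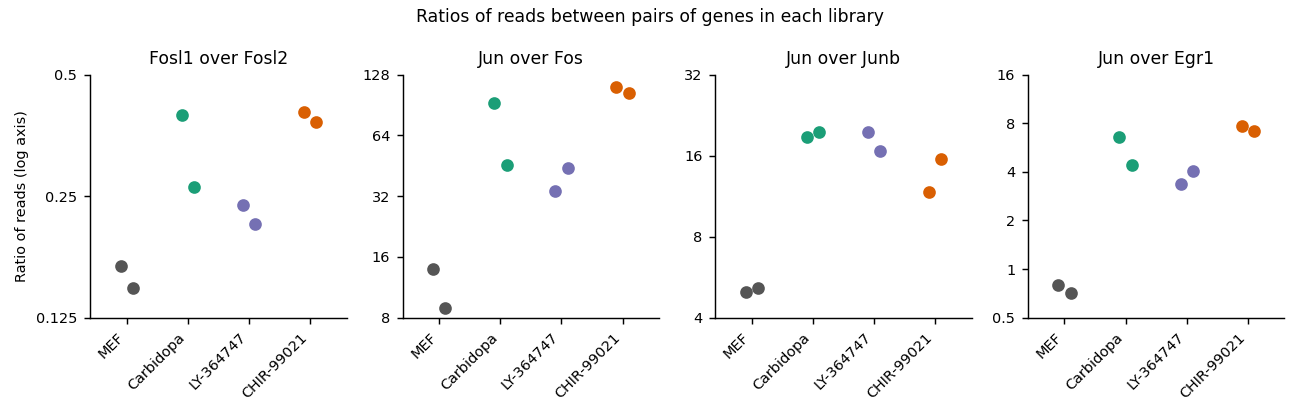
Ratio of reads between pairs of genes in each library (log2-spaced axes), with replicate 1 on the left of each pair of points. All 6 treated libraries lay above both MEF libraries in the ratios of Fosl1 to Fosl2, Jun to Fos, Jun to Junb and Jun to Egr1, the last at 0.711 and 0.802 in MEFs and 3.35 to 7.63 in treated libraries.

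Egr1, a zinc finger factor that serum and growth factors induce through serum response factor, showed the smallest adjusted p of the members against MEFs with every compound. It had 71.6 and 75.5 CPM in untreated cells, 21.8 and 20.1 under Carbidopa, 24.9 and 23.9 under LY-364747, and 24.2 and 22.0 under CHIR-99021. The 6 treated libraries formed a narrow range well below MEFs. The log2 fold change was -1.81 with Carbidopa (SE 0.11, adjusted p = 7.81e-07 from edgeR), -1.59 with LY-364747 (SE 0.11, adjusted p = 1.85e-06) and -1.67 with CHIR-99021 (SE 0.11, adjusted p = 1.3e-06), and each call held when any 1 library was left out. Between compounds Egr1 did not pass, with 95% intervals of -0.03 to 0.46 for LY-364747 against Carbidopa, -0.11 to 0.38 for CHIR-99021 against Carbidopa and -0.32 to 0.17 for CHIR-99021 against LY-364747.

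Egr2, a related factor known from hindbrain, Schwann cells and macrophages, had few reads: 21 and 22 in untreated cells, 7 and 6 under Carbidopa, 4 and 1 under LY-364747, and 2 and 2 under CHIR-99021. It entered the test only through its reads in MEFs, so a difference was built into its being tested. Pooled over replicates, reads in MEFs per read in treated cells, adjusted for depth, were 4.88 with Carbidopa (95% interval 2.57 to 9.89), 10.9 with LY-364747 (4.32 to 35.2) and 12.8 with CHIR-99021 (4.67 to 49.3), where the intervals cover counting error only. The fitted log2 fold change with LY-364747, -3.38, was -4.63 without LY-364747 replicate 1 and -2.69 without LY-364747 replicate 2. No p-value is given for Egr2 against MEFs. The macrophage markers, as summed above, were also lower in each treated group, and their part in the Egr2 value was not tested.

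Ier2, a small nuclear protein of the immediate early response, fell with LY-364747. It had 8.33 and 10.0 CPM in untreated cells, 7.67 and 4.85 under Carbidopa, 3.82 and 4.42 under LY-364747, and 8.12 and 6.44 under CHIR-99021. The log2 fold change was -1.15 with LY-364747 (SE 0.25, adjusted p = 0.00537 from edgeR), -0.55 with Carbidopa (SE 0.24, adjusted p = 0.0923) and -0.33 with CHIR-99021 (95% interval -0.86 to 0.20). The LY-364747 call was lost without MEF replicate 2 (-1.02, edgeR adjusted p = 0.0511), and Carbidopa passed without Carbidopa replicate 1 (-0.92, edgeR adjusted p = 0.00888).

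Myc, the driver of ribosome building and growth and a textbook Wnt target, was the only member called in both directions against MEFs. It had 36.4 and 33.0 CPM in untreated cells, 22.8 and 19.8 under Carbidopa, 15.2 and 16.1 under LY-364747, and 58.1 and 52.5 under CHIR-99021. The 4 groups did not overlap in Myc. Fosl1 libraries also lay on both sides of MEFs, below with LY-364747 and above with CHIR-99021. The fit adjusted for base composition, described below, called Fosl1 in both directions. Myc fell by 0.70 on the log2 scale with Carbidopa (SE 0.12, adjusted p = 0.00134 from edgeR) and by 1.15 with LY-364747 (SE 0.13, adjusted p = 5.93e-05), and it rose by 0.67 with CHIR-99021 (SE 0.12, adjusted p = 0.00142). All 3 calls held when any 1 library was left out.

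Comparing the compounds directly, CHIR-99021 differed from each of the others in several members, and no member passed between the other 2. CHIR-99021 gave higher levels than Carbidopa in 5 members (Fosb, Fosl1, Fosl2, Junb and Myc) and than LY-364747 in 6 (the same 5 and Jun), with 0 lower in either. Of all genes tested, 14.7% differed between CHIR-99021 and Carbidopa and 14.1% between CHIR-99021 and LY-364747. Among members at an unadjusted p under 0.05 there were 6 and 7, beside 4460 and 4400 of the 15154 genes tested, in either direction. These members were all higher with CHIR-99021, as were the 5 and 5 that DESeq2 called. The number of all genes that DESeq2 called is not given here for these 2 comparisons. Of these calls Myc showed the widest gap, at a log2 difference of 1.38 from Carbidopa (SE 0.12, adjusted p = 8.63e-05 from edgeR) and 1.82 from LY-364747 (SE 0.12, adjusted p = 1.96e-05). Fosl1 differed by 0.88 (SE 0.16, edgeR adjusted p = 0.00497) and 1.40 (SE 0.16, adjusted p = 0.00043). Junb differed by 1.08 (adjusted p = 0.0264, edgeR) and 1.37 (adjusted p = 0.0107), and Fosl2 by 0.61 (adjusted p = 0.00326) and 0.59 (adjusted p = 0.00393). Jun was 0.93 higher than with LY-364747 (adjusted p = 0.0101, edgeR) and 0.55 higher than with Carbidopa (95% interval 0.13 to 0.97, edgeR adjusted p = 0.0793). Fosb was 0.89 and 0.94 higher (adjusted p = 0.0434 and 0.0369, edgeR), calls that DESeq2 did not make (adjusted p = 0.139 and 0.123). Many of these calls rested on single libraries. Without CHIR-99021 replicate 1, Myc alone differed from Carbidopa, and Fosl1 and Myc from LY-364747, the same 2 as without LY-364747 replicate 1.

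Between LY-364747 and Carbidopa, 0 of the 10 members passed, in edgeR and in DESeq2, as against 0.0132% of all genes tested. At an unadjusted p under 0.05 there were 3 (Fosl1, Ier2 and Myc, all lower with LY-364747), beside 1367 of the 15154 genes tested. With 1 library left out, the log2 difference ranged from -0.729 to -0.281 for Fosl1 and -0.678 to 0.0055 for Jun. It ranged from -0.896 to -0.235 for Ier2 and -0.543 to -0.336 for Myc. The libraries of the 2 compounds did not overlap in 6 of the 10 members (Fos, Fosl1, Egr1, Egr2, Ier2 and Myc), against 37.7% of all genes tested. The 95% intervals of the log2 difference were narrowest for Fosl2 (-0.21 to 0.25) and Egr1 and widest for Egr2 (-2.75 to 0.52), and that for Jun ran from -0.80 to 0.05. A p that misses the threshold does not show that the compounds act alike.

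**Figure D4:**
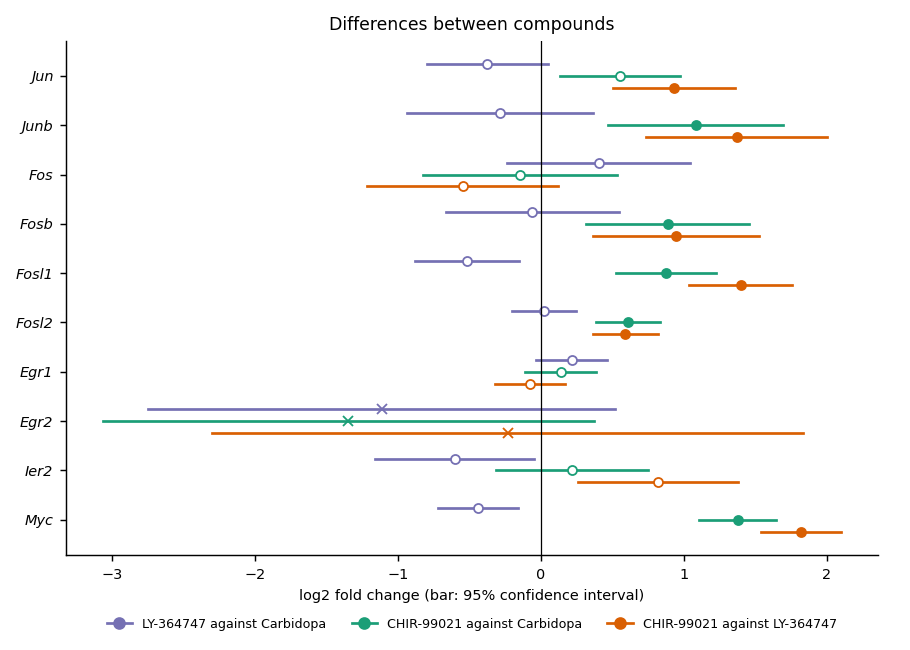
Log2 fold change of each gene between compounds, with the 95% confidence interval of edgeR's fit; filled points passed an adjusted p of 0.05, and crosses mark Egr2, which did not pass in these comparisons. Filled points all lie right of 0, for CHIR-99021 against Carbidopa (5 genes) and against LY-364747 (6 genes), and none is filled for LY-364747 against Carbidopa.

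The differences between replicates ran along with base composition. All 10 members were above the middle of the tested genes in the GC content of their longest transcript, from 51.4% in Egr2 to 62.6% in Junb, and 6 of the 10 lay among the 3025 tested genes with the highest GC content (55.1% or more). In Carbidopa, replicate 1 exceeded replicate 2 in 8 of 10 members, by a log2 ratio of 0.73 for Junb, 0.68 for Jun, 0.65 for Ier2 and 0.45 for Fosl1. In CHIR-99021 the same held for 8 of 10, led by Junb at 0.63. Over 15126 tested genes with a GC value, the median log2 ratio of replicate 1 to replicate 2 among those 3025 genes was 0.21 with Carbidopa, 0.17 with CHIR-99021, 0.05 in MEFs and -0.12 with LY-364747, and among the 3026 genes of lowest GC content it was -0.11, -0.11, -0.06 and 0.13. The median fold change of the genes of highest GC content against MEFs was 0.21, 0.09 and 0.29 with Carbidopa, LY-364747 and CHIR-99021, on the log2 scale. With each library adjusted for this trend, a step added after the data were seen, the replicate difference with Carbidopa came to 0.40 for Junb, 0.54 for Jun, 0.36 for Ier2 and 0.22 for Fosl1. In that fit Jun was still higher with all 3 compounds (0.90, 0.61 and 1.41) and Egr1 lower (-1.99, -1.68 and -1.93). The CHIR-99021 rise was 0.73 for Fosl1 and 0.53 for Myc, against 1.02 and 0.67 without the adjustment. Ier2 was then called lower with all 3 compounds (-0.81, -1.26 and -0.70, edgeR adjusted p = 0.00679, 0.000726 and 0.0139), and Fosl1 lower with LY-364747 (-0.46, edgeR adjusted p = 0.022). How far GC content accounts for the differences was not tested.

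**Figure D5:**
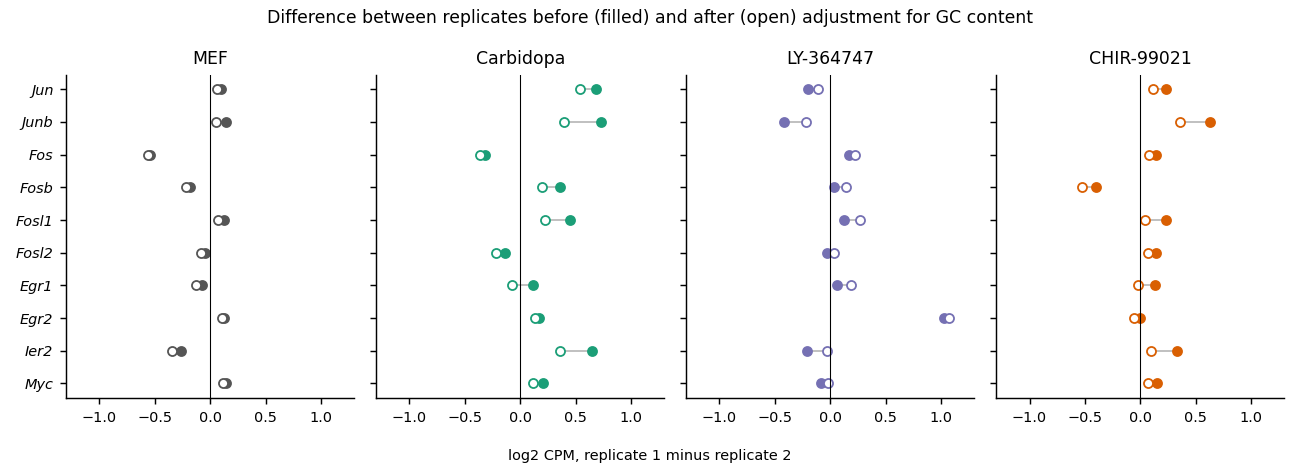
Difference in log2 CPM between replicate 1 and replicate 2 of each gene, by group, as measured (filled) and after each library was adjusted for GC content (open). In Carbidopa, Junb moved from 0.73 to 0.40 and Jun from 0.68 to 0.54, while Egr2 with LY-364747, which rests on 4 and 1 reads, stayed above 1.

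Genes around these factors were counted over whole lists, and those named are the ones with the smallest unadjusted p against MEFs in each list, so they were picked by their values. Among all genes tested, 18.0% were higher and 19.7% lower with Carbidopa, 13.7% and 17.2% with LY-364747, and 18.7% and 20.1% with CHIR-99021. The list counts against MEFs, here and in the next paragraphs, are to be read beside these shares. Of 10 tested relatives in the AP-1 and EGR families, 5, 5 and 4 were lower and 0, 0 and 1 higher with Carbidopa, LY-364747 and CHIR-99021. Atf3, a stress-induced partner of JUN, fell from 7.76 CPM on average to 3.42, 2.73 and 1.79, and the large MAF factor Maf and the EGR corepressor Nab1 fell with all 3 as well. Of 27 other immediate early genes, 8, 7 and 11 were higher and 10, 11 and 10 lower. The orphan nuclear receptors Nr4a1 and Nr4a2, which are induced alongside Egr1, fell with every compound (log2 fold change -2.84 to -2.16), Ctgf fell with all 3, by 3.34 on the log2 scale with Carbidopa, and the kinase Plk2 rose in all 3 (0.92 to 1.73).

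Of 22 upstream kinases and factors, 2, 2 and 2 were higher and 6, 6 and 1 lower with Carbidopa, LY-364747 and CHIR-99021. Rps6ka3 (RSK2), a kinase of the MAP kinase path, was higher with all 3 compounds (1.79, 2.05 and 2.12), as was the JNK kinase Mapk9 (0.38 to 0.45), and Elk3, a partner of serum response factor, was lower with Carbidopa (-0.47) and LY-364747 (-0.58). Among 13 feedback genes of the MAP kinase path, 3, 3 and 5 were higher and 3, 4 and 3 lower, with Dusp5 (0.51 to 1.72), Spred2 (0.34 to 0.57) and Spry2 (0.65 to 0.96) higher and Spry4 lower (-0.94 to -0.53) in all 3 comparisons.

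Of 19 tested genes known as AP-1 targets, 13, 13 and 8 were lower and 2, 2 and 6 higher, with a median log2 fold change of -0.86, -0.80 and -0.26. Mmp13, a collagenase and a classic AP-1 target, fell from 38.0 CPM to 1.20, 1.06 and 2.86, and Timp1 and Cd44 fell with all 3, while Jun, as given above, rose. Of 24 genes known as MYC targets, 1, 0 and 13 were higher and 3, 4 and 2 lower. With CHIR-99021 against Carbidopa, 9 MYC targets were higher and 0 lower, beside 1003 higher and 1224 lower of all genes tested. The part of Myc in the counts of its targets was not tested. CHIR-99021 and LY-364747 were the pair with the widest gap in Myc and were picked here for that gap. Between them, 978 of all 15154 genes tested were higher with CHIR-99021 and 1165 lower. Of the MYC targets, 17 were higher and 0 lower in that comparison. Among them Odc1, the first enzyme of polyamine synthesis, had 103 CPM in MEFs, 78.7 with Carbidopa, 55.4 with LY-364747 and 128 with CHIR-99021, the same order of group means as Myc, although its difference between CHIR-99021 and MEFs did not pass (0.32). Mybbp1a and Cad were higher with CHIR-99021 (0.87 and 0.80), whereas Ldha, a glycolytic enzyme, was lower with all 3 compounds (-0.58, -0.87 and -0.56), CHIR-99021 included. Of 10 partners and paralogs of MYC, 1, 0 and 1 were higher and 2, 1 and 2 lower, among them Max, the obligate partner, which was lower with all 3 compounds (-0.59 to -0.38). Mxd4 was lower with Carbidopa (-0.38) and CHIR-99021 (-0.78), Mxd3 higher with Carbidopa (1.54) and Mlx higher with CHIR-99021 (0.40). Of 14 heat shock and stress genes, 5, 3 and 5 were higher and 4, 3 and 2 lower. Ddit3, Gadd45a and Hspa1a rose in each comparison (0.78 to 1.35), and each was highest in Carbidopa replicate 1, while the chaperone Hsph1 was lower in each (-0.67, -0.75 and -0.30). No list was tested as a set.

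Over the 8 libraries, the pattern of Egr1 was shared most widely: 548 other genes had a Pearson correlation above 0.95 with it in log2 CPM, against 216 for Jun, 181 for Fosl2, 169 for Fos, 52 for Myc, 52 for Fosl1, 15 for Ier2 and 9 for Fosb. The 3 genes most like each were Timp2, Slc41a2 and Cttnbp2 for Egr1 (0.997 each), Stx6, Pspc1 and Ppp1r15a for Jun (0.995 each), Actg1, Capn2 and Wdr1 for Myc (0.989 to 0.991), and Mlx, Hmox1 and Noc2l for Fosl1 (0.985 to 0.996). These values describe 8 points in 4 groups that share library preparation and depth, and they carry no test.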

How the data were processed

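RNA-seq was performed by the authors on 8 libraries in 4 groups of 2. Reads (150-bp paired-end) were mapped with STAR to mm10 and counted on genes with featureCounts. The deposited values are raw counts of reads per gene, without normalization. Library kits are given as NEBNext Ultra (methods) and SMARTER (labels), and the annotation release and the strand setting are not given in the sources used here. Groups came from the sample titles.

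The counts were tested with edgeR 4.0.16 in R 4.3.3 (TMM scaling, the filter filterByExpr, a quasi-likelihood test of group fitted to the 8 libraries together, Benjamini-Hochberg over 15154 genes, threshold 0.05). DESeq2 1.42.0 and other settings were run as alternatives. The fit was tested on simulated data. RPKM used exon lengths of GENCODE M21, in which 99.6% of the listed genes were found. Motifs were searched in RefSeq promoter windows and were chosen after the windows had been read. GC adjustment subtracted a loess curve of each library's log2 CPM deviations against transcript GC content.

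The members and the gene lists were chosen with earlier results of these data known. All 10 members are named, with up to 4 genes of each other list that had the smallest unadjusted p against MEFs, and the 3 genes most correlated with a member, except some that are not reported here. Jund and Ccdc85b were named outside this rule, after their values had been seen. Counting intervals cover counting error only, since the reads carry no molecular identifiers.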

Additional observations from a re-analysis of the deposited data

How the results depend on the processing

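With 2 libraries per group, the spread of all groups was pooled (biological coefficient of variation 11%), and a group with a library left out is assumed to vary like the others. Low reads limit Egr2, Fosb and Fos, and the counts of members called here include Egr2. Under DESeq2, RLE scaling, other filters, a fit of the compared groups alone and the replicate block, 339 member values kept their direction and side of the threshold, 5 newly passed, 7 no longer passed and 0 reversed. The replicate numbers did not pair the libraries (correlations of deviations -0.161 to 0.128 between groups). With the number as a block, members called were 7 with Carbidopa, 8 with LY-364747 and 7 with CHIR-99021 against MEFs, 0 for LY-364747 against Carbidopa, and 4 and 5 for CHIR-99021 against Carbidopa and LY-364747. Fosl2 with CHIR-99021 (adjusted p = 0.0628) and Fosb for CHIR-99021 against Carbidopa (0.0646) and LY-364747 (0.0552) were lost under the block by edgeR, and no other call changed.

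With 1 library left out, members called ranged from 5 to 8 with Carbidopa, 5 to 7 with LY-364747 (5 without MEF replicate 2) and 7 to 7 with CHIR-99021 against MEFs, 0 to 4 for LY-364747 against Carbidopa, 1 to 6 for CHIR-99021 against Carbidopa and 2 to 5 against LY-364747. Values below the threshold that changed sign ranged, in log2, for Fosl1 with Carbidopa from -0.10 to 0.35 and for Junb with CHIR-99021 from -0.11 to 0.53 against MEFs. For LY-364747 against Carbidopa they ranged for Fosb from -0.24 to 0.14, Fosl2 from -0.0477 to 0.0897, Jun from -0.678 to 0.0055 and Junb from -0.61 to 0.13. For CHIR-99021 against Carbidopa they ranged for Fos from -0.297 to 0.0361 and Ier2 from -0.0723 to 0.589, and for Egr2 against LY-364747 from -0.91 to 1.02.

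The GC adjustment, added after seeing the data, reversed 3 values that were not called: Fosl1 with Carbidopa (-0.0599), Junb with CHIR-99021 (-0.18) and Fosb for LY-364747 against Carbidopa (0.0253). It gave 4 new calls (Ier2 with Carbidopa and CHIR-99021, Fosl1 with LY-364747, and Jun for CHIR-99021 against Carbidopa) and lost Fosb for CHIR-99021 against both other compounds. With longest-transcript lengths 4 of the 10 members kept their rank of level in MEFs. The cause of these changes was not tested. Over all genes, calls for LY-364747 against Carbidopa numbered 2 and were 329 without a filter, 16 by DESeq2, 0 in a fit of those groups alone and 3816 without Carbidopa replicate 2. In the fit of compared groups alone, CHIR-99021 gave 1027 against Carbidopa in place of 2227 and 3673 against LY-364747 in place of 2143. Without CHIR-99021 replicate 1 these fell to 715 and 663. Against MEFs, calls without 1 library ranged from 3142 to 7996 with Carbidopa (5717), 2841 to 3095 with LY-364747 (4694) and 3433 to 4709 with CHIR-99021 (5878).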
